A study of Mus musculus with 12 samples.

Results

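Goblet cells make the mucus of the intestine. The genes examined here are 9 listed by symbol for that role: Muc2, Tff3, Fcgbp, Clca1, Agr2, Zg16, Spdef, Atoh1 and Retnlb. They were found by matching the gene identifiers of the count files, without their version, to mouse symbols, and all 9 of 9 were present among 48526 gene rows. Epithelial cells of 4 female mice aged 3 months gave 12 libraries. The sample titles speak of whole intestine epithelium, and the protocol of the proximal part of the small intestine. Each animal gave 1 unselected library (input) and 1 library each of RNA pulled down with J2 and with K1, antibodies that bind double-stranded RNA whatever its sequence. The DKO group is 2 KAT2A/KAT2B double-knockout mice that were injected intraperitoneally with tamoxifen at 100 mg/kg on 4 days, and the control group is 2 mice labelled Control that had the ethanol and corn oil vehicle without tamoxifen. Cells were isolated 2 days later. The effects of genotype and of tamoxifen cannot be told apart in this design. The Cre driver and the alleles of the control mice are not given in the sources used here. KAT2A and KAT2B are related lysine acetyltransferases that act on histones and other proteins.

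Goblet cells fill their apex with granules of MUC2, a gel-forming mucin that is linked into a net and swells into mucus when secreted. AGR2, a disulfide isomerase of the endoplasmic reticulum, is needed to make MUC2. ATOH1 commits crypt progenitors to the secretory lineages, under repression by Notch signalling, and SPDEF drives the later maturation of goblet cells. TFF3, FCGBP, CLCA1 and ZG16 are released with the mucin: a trefoil peptide of epithelial repair, an IgG Fc-binding protein of the mucus gel, a metalloprotease that processes MUC2, and a lectin that binds Gram-positive bacteria. RETNLB (resistin-like beta, RELM-beta) is a secreted goblet cell protein with antibacterial activity, known to rise with type 2 cytokines and with bacterial colonization.

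In GENCODE M21 (GRCm38) the 9 genes are protein coding, and their positions include introns and untranslated regions. Muc2 (ENSMUSG00000025515) lies on the plus strand at chr7:141690340-141754693 and Fcgbp (ENSMUSG00000047730) on the plus strand at chr7:28071236-28120862. Zg16 (ENSMUSG00000049350) lies on the minus strand at chr7:127050156-127087328, where the annotation also places Gm22747 and Gm44939, which share 0 exon bases with it. Tff3 (ENSMUSG00000024029, chr17:31125306-31129646) and Spdef (ENSMUSG00000024215, chr17:27714352-27728955) lie on the minus strand, as does Clca1 (ENSMUSG00000028255, chr3:145003817-145032776). Agr2 (ENSMUSG00000020581, chr12:35992907-36004087), Atoh1 (ENSMUSG00000073043, chr6:64729125-64731245, 1 exon) and Retnlb (ENSMUSG00000022650, chr16:48816856-48818892, 4 exons) lie on the plus strand. Reads were counted without strand, but 0 of the 9 genes shared exon bases with another annotated gene. None of the 9 had a stretch of at least 100 bases that matched another gene's transcript at 97% identity or more.

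The start of the Retnlb coding sequence is shown beside that of its closest relative, Retnlg, because the widest differences among the 9 genes are those of Retnlb, which has 3 relatives and few reads. Both lines give coding bases 1 to 240, and capitals mark bases that differ from, or have no counterpart in, the other sequence.
Retnlb: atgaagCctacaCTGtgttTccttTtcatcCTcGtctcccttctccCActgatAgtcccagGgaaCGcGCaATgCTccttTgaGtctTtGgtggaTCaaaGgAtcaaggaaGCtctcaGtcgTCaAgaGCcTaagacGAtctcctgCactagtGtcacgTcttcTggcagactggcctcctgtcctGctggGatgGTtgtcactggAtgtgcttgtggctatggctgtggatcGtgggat
Retnlg: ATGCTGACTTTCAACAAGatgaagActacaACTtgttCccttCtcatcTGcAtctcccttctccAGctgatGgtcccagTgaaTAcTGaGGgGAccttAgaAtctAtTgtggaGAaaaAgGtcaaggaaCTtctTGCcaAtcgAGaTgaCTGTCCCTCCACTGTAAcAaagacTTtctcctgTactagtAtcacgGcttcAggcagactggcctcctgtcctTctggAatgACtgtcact
Over 318 aligned coding bases the 2 were 80.8% identical, and their longest identical run was 26 bases. Identity of Retnlb was 73.6% with Retnla and 61.3% with Retn. The coding sequence of Tff3 is shown as well, as it is the shortest of the 9 transcripts, and recovery in the pulldowns is set beside length further on. Capitals mark its 7 cysteine codons. The trefoil fold is held by disulfide bonds between cysteines.
Tff3: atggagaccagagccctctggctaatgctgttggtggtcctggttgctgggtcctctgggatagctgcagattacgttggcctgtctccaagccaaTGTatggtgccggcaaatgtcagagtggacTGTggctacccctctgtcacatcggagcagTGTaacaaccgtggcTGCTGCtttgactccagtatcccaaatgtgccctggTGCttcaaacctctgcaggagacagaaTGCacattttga

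Levels are given as CPM, gene counts relative to library size scaled by the trimmed mean of M-values (TMM), with the raw counts where they matter. Input libraries held 10307281 to 11474107 counts in genes and control pulldowns 13308021 to 16139531, but DKO pulldowns only 2220291 to 5826361. The 10 most abundant genes took 6.57% to 7.67% of counts in control pulldowns and 24.7% to 33.6% in DKO pulldowns. Mitochondrial genes took 1.40% to 2.77% and 8.76% to 18.6%. Reads aligned to several places numbered 2676457 in K1 of DKO replicate 2, above its 2220291 counts in genes. The part of these differences in the pulldown values was not tested, and DKO pulldown values rest on the fewest counts. In the count tables Kat2b fell in DKO input, from 28.6 and 24.7 CPM in control to 9.84 and 8.38 CPM (log2 fold change -1.51, SE 0.17, edgeR quasi-likelihood adjusted p = 6.32e-04). Kat2a fell from 17.7 and 16.4 to 7.0 and 10.9 CPM (-0.88, SE 0.23, adjusted p = 0.0205). In input, 5 of 6 proliferation markers and 4 of 6 stem cell markers fell, led by Mki67 (-2.07, SE 0.15, adjusted p = 1.57e-04) and Olfm4 (-3.04, SE 0.31, adjusted p = 4.83e-04). The share of all genes tested there with an adjusted p under 0.05 was 35.9%. Summed leukocyte markers were 89.1 and 92.1 CPM in control input and 62.2 and 55.4 in DKO input. Summed stroma markers were 1.91 to 5.05 CPM in the input libraries. Summed Paneth cell markers were 3011 and 3504 CPM in control input against 1343 and 2595 in DKO input. The part of these shifts in the values of the mucus genes was not tested. In bulk RNA a change in the number of goblet cells and a change in RNA per goblet cell cannot be told apart.

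In unselected RNA of control epithelium the secreted mucus proteins were abundant and the 2 transcription factors were not. On a scale of CPM per kilobase of merged exon, Zg16 had the highest level (1006 ± 61.4, SD, n = 2). It was followed by Fcgbp (655 ± 68.2), Tff3 (523 ± 3.32), Muc2 (238 ± 1.68) and Clca1 (166 ± 5.83). Agr2 stood at 68.6 ± 1.07, Atoh1 at 8.64 ± 1.19 and Spdef at 4.60 ± 0.398 CPM per kilobase. Retnlb came last, at 0.498 ± 0.265. The libraries of neighbouring genes in this order did not overlap. Muc2 is annotated only by 8 partial transcripts, of at most 2926 bases, so its value per kilobase covers the 7127 annotated exon bases. In DKO input Tff3 (651 ± 45.5) stood above Fcgbp (542 ± 96.3), and Retnlb (56.9 ± 51.7) stood above Atoh1 (11.2 ± 3.43) and Spdef (5.50 ± 0.106). There Retnlb did not differ from Agr2 (74.7 ± 18.9) beyond the spread of the animals. The 9 genes together took 1.2% to 1.38% of all gene counts in the 4 input libraries.

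**Figure D1:**
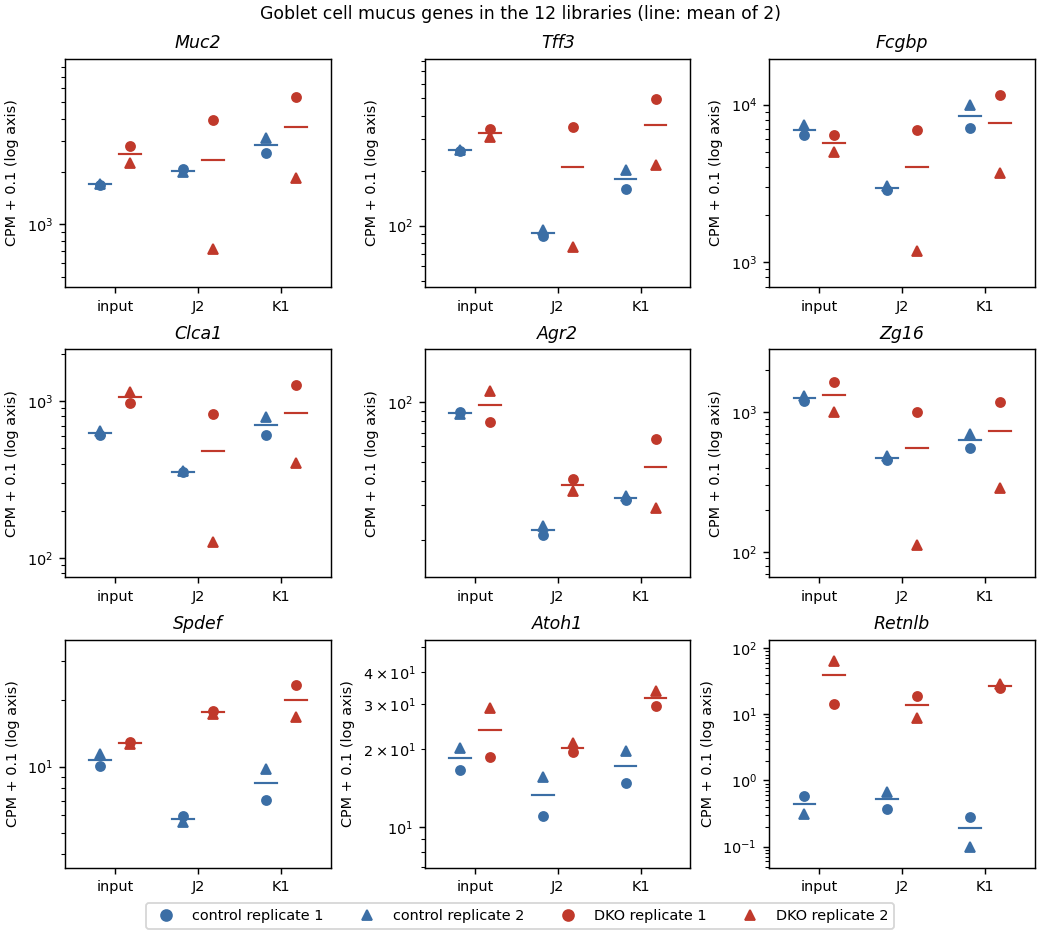
CPM of each of the 9 genes (log axis, 0.1 added) in input, J2 and K1 libraries; each point is 1 library, blue for control and red for DKO, circles for replicate 1 and triangles for replicate 2, and lines are means of 2. Retnlb is at 0 to 0.567 CPM in the 6 control libraries and at 8.64 to 65.1 CPM in the 6 DKO libraries, while DKO circles and triangles of Muc2, Tff3, Fcgbp, Clca1 and Zg16 lie far apart in the pulldowns.

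Which of the mucus genes differ in unselected RNA between the DKO and control groups? In input, Retnlb, Clca1 and Muc2 were higher in DKO, and the other 6 did not pass the test. Of the 9 genes 3 passed (edgeR quasi-likelihood, Benjamini-Hochberg adjusted p under 0.05 over all genes), each higher, and the share passing among all 15088 genes tested was 35.9%. The median log2 fold change was 0.35 over the 9 genes and -0.00097 over all genes tested. The share called among the mucus genes was near that background.

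Retnlb, the resistin-like protein, had 6 and 3 counts in the control inputs, and 170 and 885 counts in the DKO inputs. The control values were 0.477 and 0.216 CPM and the DKO values 14.2 and 65.1 CPM. Every DKO library lay above every control library, although the DKO animals differed from each other 4.54-fold. The log2 fold change was 6.87 (SE 0.96, adjusted p = 0.00172), and it passed under each of the 11 alternative settings, at 5.37 to 7.59. Reads of its relatives Retn, Retnla and Retnlg numbered 0 to 2 per input library.

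Clca1, the mucus metalloprotease, was at 613 and 644 CPM in control input and at 979.9 and 1150.5 CPM in DKO input. The groups did not overlap (log2 fold change 0.80, SE 0.15, adjusted p = 0.00618). With 2 libraries per group a lack of overlap is weak evidence, for this and the other genes, and its share over all genes is not given. Muc2, the mucin itself, was at 1689 and 1706 CPM in control and at 2819.5 and 2233 CPM in DKO (0.61, SE 0.18, adjusted p = 0.0338). Both calls were lost in a fit of all 12 libraries (adjusted p = 0.596 for Clca1 and 0.713 for Muc2), in which input and pulldowns share 1 estimate of the spread. Clca1 also missed the threshold without control replicate 1 (adjusted p = 0.0656), and Muc2 without control replicate 1 (0.242) or control replicate 2 (0.222). Without DKO replicate 1 or DKO replicate 2, 5 of the 9 genes passed, where 29.9% or 39.4% of all genes did.

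Tff3, the trefoil peptide, was at 257 and 259 CPM in control and at 337 and 305 in DKO, without overlap (0.35, SE 0.13, adjusted p = 0.0637). Spdef, the maturation factor, was at 9.95 and 11.2 CPM in control and at 12.8 and 12.5 in DKO (0.30, SE 0.17, adjusted p = 0.216). Atoh1, the lineage factor, was at 16.6 and 20.1 against 18.6 and 28.9 CPM (0.42, SE 0.22, adjusted p = 0.187). The libraries overlapped for Atoh1 but not for Tff3 and Spdef, and none of these genes passed. Fcgbp, the most counted of the 9, was at 6368 and 7380.5 CPM in control and at 6407 and 4977 in DKO (-0.23, SE 0.22). Zg16, the lectin, was at 1210.2 and 1319 against 1648 and 1004 CPM (0.11, SE 0.24), and Agr2, the isomerase, at 89.5 and 87.6 against 79.1 and 114 CPM (0.16, SE 0.18). For Fcgbp, Zg16 and Agr2 the libraries of the 2 groups overlapped. Of these, Zg16 (0.42 without DKO replicate 2 and -0.28 without DKO replicate 1) and Agr2 (-0.13 and 0.41) changed direction with the DKO animal left out.

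**Figure D2:**
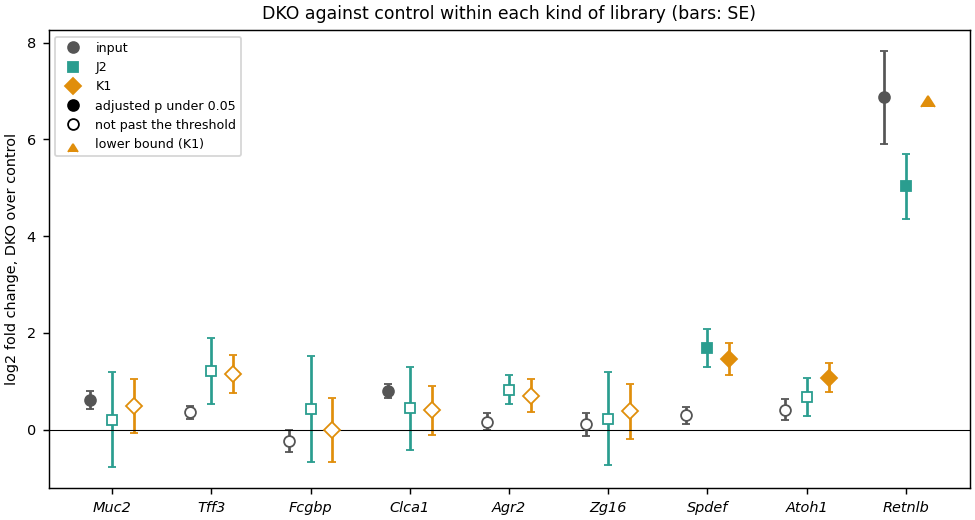
Log2 fold change of DKO over control for the 9 genes in input (grey circles), J2 (green squares) and K1 (orange diamonds), with bars for the SE; filled symbols passed the adjusted p threshold, and the triangle for Retnlb in K1 is a lower bound with no bar. Retnlb stands apart from the other 8 in each kind of library, and the SE of Muc2, Fcgbp, Clca1 and Zg16 in J2 spans 0.

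In the J2 pulldown, 2 of the 9 genes were higher in DKO, Retnlb and Spdef, where 12.2% of the 13181 genes tested passed. The median log2 fold change was 0.68 over the 9 genes and 0.03 over all genes tested. Retnlb was read 4 and 7 times in the control libraries, against 73 and 28 times in the DKO libraries (0.274 and 0.567 against 18.6 and 8.64 CPM, log2 fold change 5.03, SE 0.67, adjusted p = 0.0287). Its call was lost without control replicate 1, as were most calls over all genes. Spdef was at 5.83 and 5.50 CPM in control and at 17.8 and 17.3 CPM in DKO, from 56 to 85 counts per library (1.69, SE 0.38, adjusted p = 0.0492). The 2 groups of Spdef stood apart, and the DKO animals differed 1.03-fold. The call of Spdef was lost without TMM scaling (adjusted p = 0.118), in DESeq2 (0.0576), with the replicate number as a block (0.0805) and at equal depth (0.0687). It was also lost without control replicate 1 or control replicate 2, where most calls over all genes were lost too. Its log2 fold change stayed between 1.51 and 1.75 under the alternatives.

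In the K1 pulldown, 3 of the 9 genes were higher in DKO, Retnlb, Spdef and Atoh1, where 27.1% of the 12888 genes tested passed. The median was 0.71 over the 9 genes and -0.02 over all genes tested. Retnlb had 3 and 0 counts in control K1 and 105 and 63 counts in DKO K1. With 3 counts per control library as the floor, it was at least 119.6-fold higher in DKO (adjusted p = 0.00168), a bound that covers counting error only. Spdef was at 6.97 and 9.69 CPM in control and at 23.3 and 16.8 CPM in DKO (1.46, SE 0.34, adjusted p = 0.0204). Atoh1 was at 14.7 and 19.5 CPM in control and at 29.5 and 33.5 CPM in DKO (1.08, SE 0.30, adjusted p = 0.0379). Neither gene overlapped between genotypes. Without TMM scaling the adjusted p was 0.0540 for Spdef and 0.142 for Atoh1. Both calls were lost without control replicate 1 or control replicate 2, as were most calls over all genes. Atoh1 missed the threshold in DESeq2 too (0.0842) and with no filter on low counts (0.0600).

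The 2 DKO animals differed widely in the abundant secreted products of the pulldowns. In J2, Muc2 was at 2065 and 1992 CPM in control, but at 3945 CPM in DKO replicate 1 and at 726 CPM in DKO replicate 2. Zg16 was at 457 and 490.2 CPM in control and at 1000.4 and 113 CPM in DKO, an 8.85-fold gap between animals of 1 group. Control libraries lay between the 2 DKO libraries for both genes. The same held for Fcgbp (2887 and 3047 in control, 6851 and 1170.1 in DKO), Clca1 (351 and 356, 833 and 126) and Tff3 (87.9 and 94.9, 345 and 75.9). The replicate gap in J2 DKO was 2.18 to 3.15 on the log2 scale for these 5 genes, and its 5th to 95th percentile over 9742 genes with a mean of at least 50 counts ran from -1.85 to 2.05. It was 0.20 for Agr2, 0.05 for Spdef and -0.11 for Atoh1.

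In K1 the same 5 genes were again higher in DKO replicate 1, by 1.2 to 2.07 on the log2 scale, against a 5th to 95th percentile of -1.24 to 1.48 over all such genes. Muc2 was at 2569 and 3130.3 CPM in control K1 and at 5326 and 1851 in DKO K1. Fcgbp was at 7064 and 9878 against 11541 and 3685 CPM. Tff3 was at 158 and 203 CPM in control K1 and at 496 and 216 in DKO K1, so that its groups did not overlap (1.15, SE 0.39, adjusted p = 0.0672). It passed in DESeq2 (0.0393), at equal depth (0.0408) and without DKO replicate 2 (5.06e-04). Agr2 joined the 5 genes in K1 (65.1 and 29.0 CPM), and Spdef (23.3 and 16.8) and Atoh1 (29.5 and 33.5) lay closer together. Replicate 1 minus replicate 2 of these 8 genes was between -0.50 and 0.08 on the log2 scale in the control groups. In DKO input it was 0.71 for Zg16 and between -0.63 and 0.36 for the other 7.

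The direction of Muc2, Tff3, Fcgbp, Clca1 and Zg16 in J2 turned with the DKO animal left out, as it did in K1 for these genes other than Tff3. Without DKO replicate 2, Muc2, Tff3, Fcgbp, Clca1 and Zg16 passed as higher in J2 DKO, at log2 fold changes of 1.02, 1.98, 1.27, 1.30 and 1.14. Without DKO replicate 1, Muc2, Fcgbp, Clca1 and Zg16 passed as lower, at -1.40, -1.26, -1.40 and -1.99, and Tff3 was at -0.19 (adjusted p = 0.308). In J2 8 of the 9 genes passed without DKO replicate 1 and 8 without DKO replicate 2, against 2 with both, but the share of all genes that passed rose as well, from 12.2% to 59.0% and 54.0%. In K1 5 passed without DKO replicate 1 and 8 without DKO replicate 2, against 3 with both, where the share of all genes went from 27.1% to 38.0% and 41.5%. With a lone DKO library the test assumes that it would vary like the control libraries. Summed markers of enterocytes, the absorptive cells, moved in the same order: 31221 CPM in DKO replicate 1 and 5887 CPM in DKO replicate 2 for J2, and 36125 and 10299 CPM for K1, against 17936 to 25288 CPM in the control pulldowns. Summed stroma markers were 139 and 28.1 CPM in DKO J2 and 162 and 61.6 CPM in DKO K1, against 2.53 to 29.7 CPM in control pulldowns. Their part in the gaps was not tested.

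**Figure D3:**
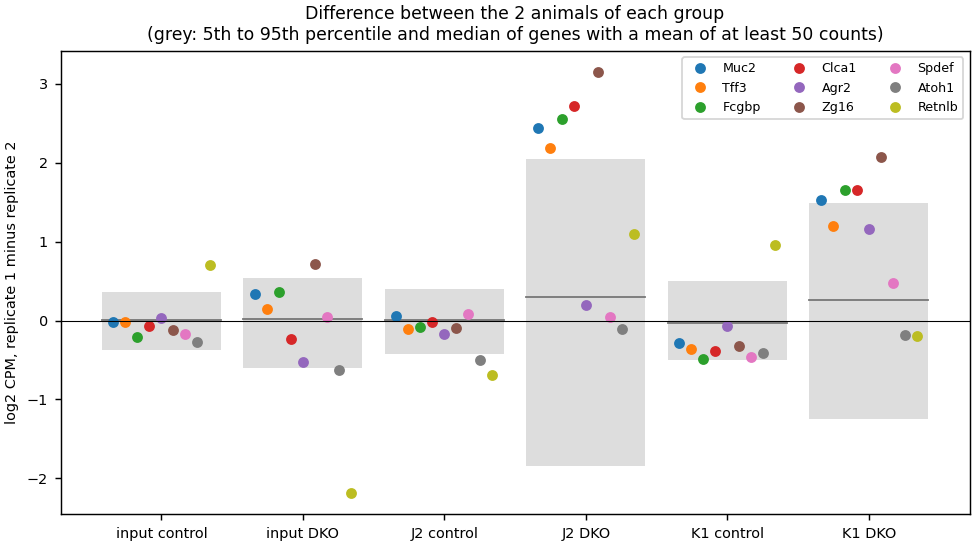
Log2 CPM of replicate 1 minus replicate 2 for each of the 9 genes (coloured points) in the 6 groups, with the 5th to 95th percentile (grey) and median (line) of the 9742 genes with a mean of at least 50 counts. Muc2, Tff3, Fcgbp, Clca1 and Zg16 lie above the grey range in J2 DKO, where Agr2, Spdef and Atoh1 are near 0, and Retnlb in input DKO lies far below it.

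The level of Retnlb ordered the 2 DKO animals differently by kind of library. Its input level was higher in DKO replicate 2 (65.1 against 14.2 CPM), its J2 level higher in DKO replicate 1 (18.6 against 8.64 CPM), and its K1 levels were close (24.9 and 28.5 CPM). Against input of the same animal, its log2 difference in DKO replicates 1 and 2 was 0.39 and -2.89 for J2, and 0.81 and -1.18 for K1. Each of the other 8 genes was likewise lower against input in DKO replicate 2 with both antibodies, though Spdef barely so in J2 (0.47 and 0.46). Over genes with a mean of at least 50 counts the median replicate gap leaned the same way. It was 0.30 in J2 DKO and 0.26 in K1 DKO, against 0.02 in input DKO. As a share of all reads of the 9 genes in a library, Retnlb took 0.115% and 0.658% in DKO input, and at most 0.00940% in any control library.

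How much of each transcript was recovered with the antibodies was examined by pulldown against input of the same animals. In control epithelium Agr2 was lower than input with either antibody and Spdef was lower than input in J2. In J2 against input, 2 of the 9 genes passed, both lower, Agr2 and Spdef, where 29.8% of 15923 genes passed. Leaving out Retnlb, which has at most 7 counts in control libraries, the median over 8 genes was -1.05, and over all genes tested -0.07. In K1 against input 1 of the 9 passed, Agr2, lower, where 39.8% of 15908 genes passed. That median was -0.31 over the 8 genes and 0.00 over all genes.

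Agr2 was at 89.5 and 87.6 CPM in control input, at 21.1 and 23.6 CPM in J2 and at 31.8 and 33.5 CPM in K1. Its log2 difference from input was -1.98 for J2 (SE 0.26, adjusted p = 0.00285) and -1.52 for K1 (SE 0.32, adjusted p = 0.00413). The pulldowns lay far below the inputs. Without control replicate 1 or control replicate 2, which leaves 1 control animal, these calls were lost. So were all calls over all genes for J2 and nearly all for K1, so the loss is not particular to Agr2. Spdef was at 9.95 and 11.2 CPM in control input and at 5.83 and 5.50 in J2 (-0.90, SE 0.25, adjusted p = 0.0277). With no filter on low counts its adjusted p was 0.103. Its call was also lost without control replicate 1 or control replicate 2, as was every other J2 call there.

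The other J2 differences in control were -1.49 for Tff3 (SE 0.59), -1.41 for Zg16 (SE 0.84), -1.21 for Fcgbp (SE 0.87) and -0.83 for Clca1 (SE 0.72). Both control animals lay below 0 for each of them. Per animal the values were -1.54 and -1.45 for Tff3, -1.40 and -1.43 for Zg16, -1.14 and -1.28 for Fcgbp and -0.80 and -0.85 for Clca1. Their SE comes from a fit that also holds the DKO libraries. Without DKO replicate 1 the 4 passed, with adjusted p from 5.55e-06 to 6.20e-05, and without DKO replicate 2 likewise, from 1.01e-05 to 1.56e-04. Either omission raised the count for control J2 from 2 to 7 of the 9 genes and the share of all genes from 29.8% to 59.9% and 60.5%. For control K1 it rose from 1 to 4 of the 8 genes given a fitted value, and over all genes from 39.8% to 54.8% and 56.0%. Tff3 in J2, with adjusted p = 0.0911 in the 8-library fit, passed as well without TMM scaling (0.0130), with no filter on low counts (0.00611) and in DESeq2 (0.0433). Muc2 differed from them: both control animals were above input in J2, by 0.29 and 0.22, and in K1, by 0.60 and 0.88. Its fitted differences were 0.26 (SE 0.75) and 0.67 (SE 0.46), and the first turned to -0.12 without TMM scaling.

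In DKO, 1 of the 9 genes passed in J2 against input, Agr2, lower (-1.31, SE 0.26, adjusted p = 0.0114), where 25.7% of genes passed. In K1 against input 1 passed again, Agr2 (-1.10, SE 0.32, adjusted p = 0.0244), where 35.6% passed. Without control replicate 1 or control replicate 2 these calls were lost, as were most calls over all genes for J2 and many for K1. The K1 value of Agr2 was -0.37 without DKO replicate 2, and its call was lost there too. Without DKO replicate 1 or DKO replicate 2 the J2 count in DKO was 7 or 3 of the 9 genes (46.0% or 42.1% of all genes), and the K1 count 5 or 1 (29.4% or 36.4%). With the animal as a block, which pairs each pulldown with its own input, Zg16 passed as well in K1, at -1.10 in control (adjusted p = 0.0159) and at -1.21 in DKO (adjusted p = 0.0132), so the K1 counts rose from 1 to 2. Unblocked, Zg16 was at -1.09 (SE 0.53, adjusted p = 0.130) and -0.93 (SE 0.53, adjusted p = 0.198).

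**Figure D4:**
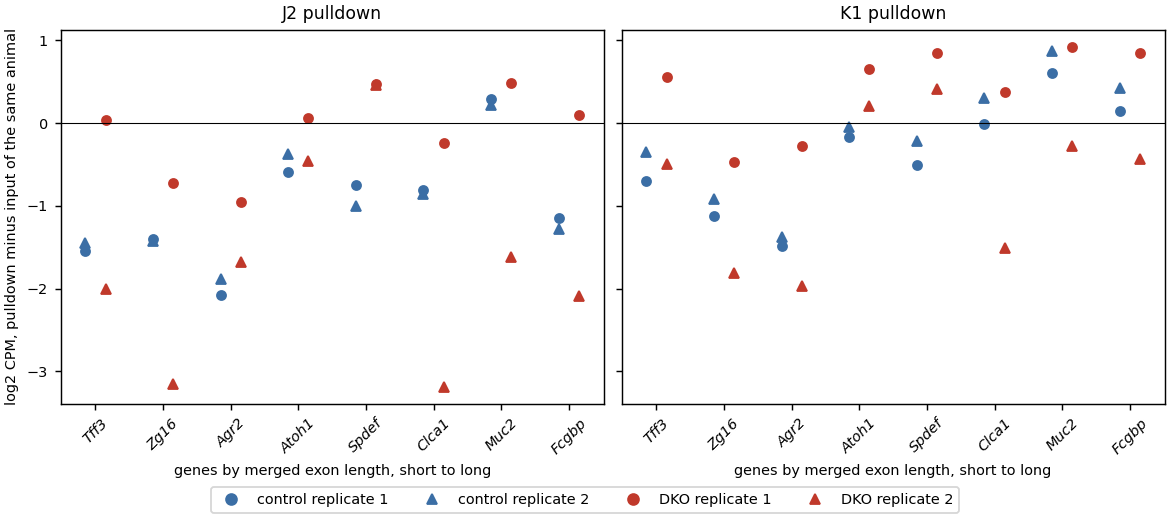
Log2 CPM of pulldown minus input of the same animal for the 8 genes other than Retnlb, ordered by merged exon length, for J2 (left) and K1 (right); blue is control, red DKO, circles replicate 1 and triangles replicate 2. Control values of Agr2 run from -2.08 to -1.38, those of Muc2 lie above 0, and DKO values of Spdef lie above 0 where control values lie below it.

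Recovery was also set beside transcript length and GC content, the share of G and C bases. Across 12880 protein-coding genes of control libraries the J2 difference had a Spearman rho of 0.421 with merged exon length, and 616 genes under 1300 bases had a median of -1.36 against 0.09 for the 12264 longer ones. For K1 the rho was 0.285 and the medians -0.78 and 0.15. In DKO rho was 0.173 for J2 and 0.103 for K1. With GC content rho was -0.025 in control and 0.313 in DKO for J2, and 0.176 and 0.368 for K1. Spdef had the highest GC content of the mucus genes, at 59.3%. Genes share libraries and are not independent, so these are descriptions. Tff3 (493 bases), Retnlb (696), Zg16 (1257) and Agr2 (1291) are under 1300 bases, the median gene has 4429. Fcgbp, the longest at 10497 bases, was below input in both control J2 libraries and above it in both control K1 libraries (0.15 and 0.42). Muc2, at 7127 bases, was above input in all 4. The part of length or GC content in the members' values was not tested.

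Whether recovery itself differed between genotypes was tested as an interaction, the pulldown-to-input difference in DKO minus that in control. With edgeR 0 of the 9 genes passed for J2, where 2.71% of genes passed, and 0 for K1, where 5.47% passed. At an unadjusted p under 0.05 there was 1 gene for each antibody, Spdef, where 4120 of 15923 genes were under it for J2 and 3736 of 15908 for K1. DESeq2 called 1 of the 9 for J2 and 0 for K1, where it called 13.1% and 9.32% of all genes tested. Over the 8 genes without Retnlb the median was 0.47 for J2 and 0.29 for K1, and over all genes 0.00 and -0.20. Spdef lay below its input in both control animals, by -0.75 and -1.01 in J2 and by -0.50 and -0.21 in K1. In both DKO animals it lay above its input, by 0.47 and 0.46 in J2 and by 0.85 and 0.42 in K1. The interaction was 1.39 for J2 (SE 0.35, adjusted p = 0.0687, DESeq2 adjusted p = 0.0175) and 1.03 for K1 (SE 0.36, adjusted p = 0.122). For J2 it passed without DKO replicate 1 or DKO replicate 2. It missed without control replicate 1 or control replicate 2, where all calls over all genes were lost. Leaving out DKO replicate 1 or DKO replicate 2 raised the J2 count from 0 to 7 or 6 genes, and the share of all genes from 2.71% to 41.3% or 27.6%. The K1 count rose from 0 to 3 or 2 genes, and the share of all genes from 5.47% to 22.7% or 10.1%.

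Across the 12 libraries the genes with log2 CPM most like that of Muc2, among 9377 genes with a mean of at least 50 counts that carry no Gm or Rik symbol, were Cdh1 (Pearson r 0.975), Ppp2r1a (0.964), Uba1 (0.954), Mon2 (0.954) and Jup (0.947). Cdh1 encodes E-cadherin and Jup encodes plakoglobin, both of epithelial junctions. Of the mucus genes Clca1 was the closest (0.838, rank 167), then Fcgbp (0.824, rank 205), Tff3 (0.694) and Zg16 (0.668). Agr2, Spdef, Atoh1 and Retnlb were at 0.113 to 0.167. The points share animals and library kinds, and these values describe them only.

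Lists of genes of goblet cells, mucin processing, secretory fate, mucins, relatives of the members and cytokine signalling were read in the same input comparison. In bulk RNA, changes of these genes cannot be placed in goblet cells. In that comparison 35.9% of all genes tested passed. This share is the background for the list counts that follow, in which genes that rose or fell are those that passed. Of 20 other goblet cell genes 6 rose and 3 fell, with a median of 0.05. Guca2a, the prohormone guanylin, rose most (1.45, SE 0.14, adjusted p = 3.63e-04), followed by Slc12a8, a solute carrier (1.33, SE 0.13, adjusted p = 4.36e-04). Rep15, a Rab15 effector, and Bcas1 fell most (-1.04, SE 0.32, adjusted p = 0.0373, and -0.87, SE 0.21, adjusted p = 0.0171). The list held genes moving both ways.

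Of 25 genes of mucin folding and glycosylation 24 were tested, 12 rose and 2 fell, and the median was 0.46. Fut2, the fucosyltransferase that puts terminal fucose on mucin glycans, had 36 and 24 counts in control and 4744 and 7520 in DKO (7.74, SE 0.30, adjusted p = 3.67e-05). Gcnt3, which makes branched mucin core glycans, had 673 and 631 counts in control and 4981 and 4769 in DKO (2.99, SE 0.16, adjusted p = 6.18e-05). Galnt7, an enzyme early in O-glycosylation, fell (-0.69, SE 0.13, adjusted p = 0.00581), as did Txndc5, a disulfide isomerase (-0.65, SE 0.13, adjusted p = 0.00714). In the pulldowns 5 of this list rose in J2, where 12.2% of all genes tested passed, and 9 in K1, where 27.1% passed. Fut2 and Gcnt3 were among those that rose in both.

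Of 13 genes of Notch signalling and secretory fate 1 rose and 4 fell, with a median of -0.33. Foxa1, a forkhead factor, rose (1.23, SE 0.16, adjusted p = 0.00127). Sox4 fell (-1.42, SE 0.19, adjusted p = 0.00153), and Gfi1, a repressor downstream of ATOH1, fell (-1.15, SE 0.31, adjusted p = 0.0237). The other 2 that fell, named after their values were seen, were Hes1, the Notch target that represses Atoh1 (-0.94, SE 0.16, adjusted p = 0.00444), and Notch1 (-0.67, SE 0.14, adjusted p = 0.00944). Of 8 genes of cytokine signalling to goblet cells 7 were tested and 2 rose, Il4ra, a subunit of receptors for IL-4 and IL-13 (1.55, SE 0.19, adjusted p = 9.05e-04), and Stat3 (0.52, SE 0.14, adjusted p = 0.0229). Il13ra2 had 0 counts in the input libraries.

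Of 8 other mucins 6 were tested and 4 rose. They were the membrane mucins Muc1 (3.34, SE 0.57, adjusted p = 0.00395), Muc3 (1.95, SE 0.23, adjusted p = 8.80e-04) and Muc13 (0.87, SE 0.21, adjusted p = 0.0159) and the gel-forming Muc5b (1.23, SE 0.29, adjusted p = 0.0155). Muc1 rests on 8 and 4 control counts against 77 and 38. Muc5ac, a gel-forming mucin of stomach and airway, had 0 to 4 counts per input library. Of 12 relatives of the members 7 were tested, 5 rose and 1 fell. Clca3a1 rose most (4.61, SE 0.28, adjusted p = 8.26e-05, 84 and 66 counts against 2006 and 1427), then Clca2 (1.77, SE 0.33, adjusted p = 0.00570), and Clca3b fell (-1.16, SE 0.16, adjusted p = 0.00143). Tff1 had 0 counts in the input libraries.

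**Figure D5:**
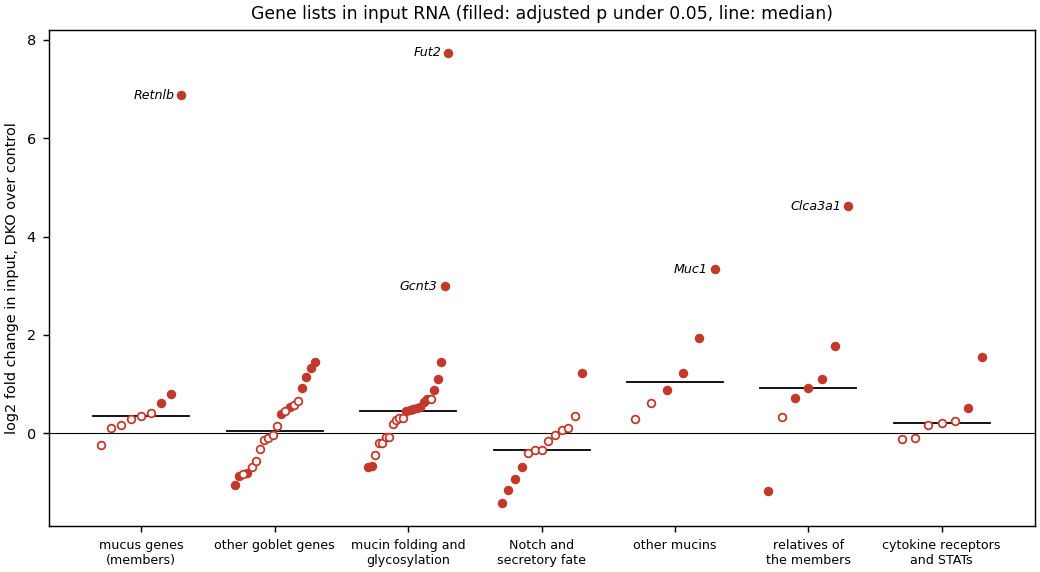
Log2 fold change of DKO over control in input for the 9 mucus genes and for 6 lists of genes of goblet cells, mucin processing, fate, mucins, relatives and cytokine signalling; each point is a gene, filled where the adjusted p passed, and lines are list medians. Fut2 (7.74), Retnlb (6.87), Clca3a1 (4.61), Muc1 (3.34) and Gcnt3 (2.99) stand above the rest, and 3 of 9, 9 of 20 and 14 of 24 points of the first 3 columns are filled. The share passing among all genes tested was 35.9%.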

How the data were processed

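Per the labels' protocols, RNA of cells released with EDTA was lysed, bound with J2 or K1 and protein G beads, and made into stranded libraries with random hexamers, ribosomal RNA depletion and molecular identifiers. The authors deposited raw counts of reads for each gene, 1 file per library, made without strand per the labels. The submitters' processing notes name STAR 2.7.10b, SAMtools 1.17, UMI-tools 1.1.4, HTSeq 2.0.2, DESeq2 1.40.1, edgeR 3.42.2 and deepTools 3.5.2, and builds mm10 and GRCm38.p4, without their roles. If identifiers were not used, copies count as reads. Rows of reads outside genes (6.76% to 27.0% of listed reads) and other closing rows were left out. Scaling removes any difference in total RNA pulled down.

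Symbols and exon lengths came from GENCODE M21 (48144 of 48526 identifiers matched). The 9 genes and the lists of other genes were chosen with earlier results of these data known. All 9 are named, and of each other list up to 2 called genes with the widest change in each direction. Muc13, Muc5b, Hes1 and Notch1 fall outside this rule and were named after their values were seen. Muc5ac, Col1a1 and Pecam1, which were not called, fall outside it too, as do genes named for 0 or few counts, such as Tff1 and Il13ra2. Counts were fitted across all genes with edgeR 4.0.16 in R 4.3.3 (TMM, filterByExpr with a count minimum of 10, quasi-likelihood test, Benjamini-Hochberg, threshold 0.05), after a check on simulated data. Fits of DKO against control held 4 libraries (2 residual degrees of freedom). Fits of pulldown against input held 8 (4). The quasi-likelihood test draws each gene's spread, between 2 animals per group, toward that of all genes. Its p-values thus do not rest on these degrees of freedom alone. Fits of 8 libraries pool the spread over their groups. Without the block they treat pulldown and input of an animal as independent. SE is the absolute log2 fold change divided by the root of F, and 2 was the prior count of log2 CPM. A group with at most 3 counts in each library is at the floor. Sequences were compared with blastn 2.17.0+. Pulldown and input of a replicate come from 1 animal per the library names, and their deviations from group means correlated at 0.37 to 0.72. Replicates of a group were separate libraries (chi-square per degree of freedom 11.0 to 96.0). Alternatives were other size factors, no scaling, no filter, DESeq2 1.42.0, all 12 libraries in 1 fit, a replicate block, equal depth, and leaving out each replicate.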

Additional observations from a re-analysis of the deposited data

How the results depend on the processing

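The 9 genes and 9 comparisons gave 79 fitted values that were recomputed under 11 alternatives. The number kept on the same side of the threshold and in the same direction was 77 with other size factors, 57 without TMM scaling, 68 with no filter on low counts, 73 in DESeq2, 77 with all 12 libraries in 1 fit, 68 with the replicate block and 75 at equal depth. It was 67 and 66 without control replicate 1 and 2, and 32 and 34 without DKO replicate 1 and 2. DKO pulldowns of 2220291 to 5826361 counts limit the pulldown results.

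The number of members called changed as follows. The share of all genes tested that passed is in brackets, except for the ranges that leave out a replicate. In the comparisons with a pulldown, calls over all genes moved with these omissions too, as given further on. Those ranges alone therefore do not set the mucus genes apart from other genes. All 12 libraries in 1 fit gave 1 in input DKO against control (10.1%). J2 DKO against control gave 1 without TMM scaling (10.3%), in DESeq2 (18.4%), with the replicate block (17.2%) and at equal depth (11.1%). K1 DKO against control gave 1 without TMM scaling (32.5%), 2 with no filter (20.4%, Atoh1 lost) and 4 at equal depth (24.8%, Tff3 gained). J2 against input in control gave 3 without TMM scaling (27%) and in DESeq2 (27.8%), with Tff3 gained. It gave 3 with no filter (20.1%, Tff3 and Zg16 gained, Spdef lost). The count for K1 DKO against control was 3 in DESeq2 too (21.3%), but with Tff3 in place of Atoh1. Without TMM scaling there were 2 in J2 against input in DKO (24%). There were 3 in K1 against input in control (37.5%) and 2 in K1 against input in DKO (39.2%). With no filter on low counts these 3 comparisons gave 4 (18.8%), 2 (26%) and 2 (22.2%). The replicate block, here a pairing by animal, gave 2 in each K1 against input comparison (45.8% in control, 39.8% in DKO). It changed no call of a mucus gene other than those of Zg16 there and Spdef in J2 DKO against control. DESeq2 gave 1 in the J2 interaction (13.1%). Leaving out each replicate in turn gave 1 to 5 in input DKO against control, 0 to 8 in J2 DKO against control, 1 to 8 in K1 DKO against control, 0 to 7 in J2 against input in control, 0 to 7 in J2 against input in DKO, 0 to 4 in K1 against input in control, 0 to 5 in K1 against input in DKO, 0 to 7 in the J2 interaction, 0 to 3 in the K1 interaction.

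Without TMM scaling, log2 values turned to -0.0457 for Zg16 in input DKO against control, -0.11 for Muc2 and -0.13 for Zg16 in J2 DKO against control, -0.0056 for Clca1 and -0.0454 for Zg16 in K1 DKO against control, -0.12 for Muc2 and -0.10 for Retnlb in J2 against input in control. They also turned to -0.0144 for Fcgbp and -0.15 for Clca1 in K1 against input in control, -0.30 for Tff3, -0.0529 for Fcgbp and -0.0063 for Atoh1 in K1 against input in DKO, -0.0851 for Zg16 in the J2 interaction, -0.0385 for Fcgbp in the K1 interaction. With the replicate block they turned to -0.20 for Muc2, -0.0055 for Fcgbp, -0.0585 for Clca1 and -0.43 for Zg16 in J2 DKO against control, -0.044 for Tff3 in K1 against input in DKO, -0.49 for Zg16 in the J2 interaction, -0.0778 for Fcgbp and -0.12 for Zg16 in the K1 interaction. With other size factors they turned to 0.0688 for Fcgbp in K1 DKO against control, -0.0429 for Clca1 in K1 against input in control. At equal depth they turned to 0.14 for Fcgbp in K1 DKO against control, -0.12 for Clca1 in K1 against input in control. In DESeq2 the value turned to -0.0357 for Clca1 in K1 against input in control. With no filter on low counts they turned to -0.12 for Zg16 and -0.0481 for Atoh1 in the J2 interaction. Leaving out each replicate in turn, the values that changed direction covered these ranges. Input DKO against control gave -0.13 to 0.41 for Agr2 and -0.28 to 0.42 for Zg16. J2 DKO against control gave -1.40 to 1.02 for Muc2, -0.19 to 1.98 for Tff3, -1.26 to 1.27 for Fcgbp, -1.40 to 1.30 for Clca1 and -1.99 to 1.14 for Zg16. K1 DKO against control gave -0.37 to 1.06 for Muc2, -0.95 to 0.61 for Fcgbp, -0.55 to 1.02 for Clca1 and -0.89 to 1.09 for Zg16. J2 against input in control gave -0.75 to 1.35 for Retnlb. J2 against input in DKO gave -1.73 to 0.51 for Muc2, -2.12 to 0.0621 for Tff3, -2.20 to 0.12 for Fcgbp, -0.57 to 0.0866 for Atoh1 and -3.02 to 0.42 for Retnlb. K1 against input in control gave -0.0637 to 0.22 for Clca1. K1 against input in DKO gave -0.43 to 0.83 for Muc2, -0.65 to 0.47 for Tff3, -0.59 to 0.76 for Fcgbp, -1.67 to 0.29 for Clca1 and -1.34 to 0.73 for Retnlb. The J2 interaction gave -1.87 to 0.24 for Muc2, -0.50 to 1.55 for Tff3, -0.87 to 1.32 for Fcgbp, -2.34 to 0.61 for Clca1, -1.73 to 0.71 for Zg16 and -3.16 to 0.15 for Retnlb. The K1 interaction gave -1.07 to 0.16 for Muc2, -0.0379 to 1.06 for Tff3, -0.79 to 0.54 for Fcgbp, -1.73 to 0.20 for Clca1, -0.59 to 1.14 for Agr2 and -0.86 to 0.53 for Zg16. The cause was not tested.

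For DKO against control the replicates share only a number: deviations correlated at 0.04 in input, -0.15 in J2 and -0.15 in K1, and the replicate block moved calls from 5421 to 5732, from 1606 to 2262 and from 3487 to 3377 genes. Over all genes, calls moved by more than 1.5 times as follows. Input gave 5421 and 1675 with all 12 libraries. J2 DKO against control gave 1606, 4273 with no filter, 2751 in DESeq2, 5984 with all 12 libraries, and 177 to 8635 leaving out a replicate, and K1 gave 3487 and 1149 to 5819. At equal depth J2 against input fell from 4747 to 2634 in control and from 4087 to 2325 in DKO, and K1 against input from 6324 to 3033 and from 5659 to 3499. Leaving out a replicate gave 0 to 10139, 337 to 7791, 281 to 9189 and 3005 to 5970 for these 4. The J2 interaction gave 432, 669 without TMM scaling, 2453 with no filter, 1814 in DESeq2, 898 with all 12 libraries, 0 with the block (4074 at an unadjusted p under 0.05), 160 at equal depth and 0 to 6990 leaving out a replicate. The K1 interaction gave 870, 523 with other size factors, 1763 with no filter, 59 with all 12 libraries, 1912 with the block, 246 at equal depth and 0 to 3802 leaving out a replicate.

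Without TMM scaling the share of calls that were higher fell from 52.4% to 42.1% in input, from 49.4% to 32.7% in J2 DKO against control and from 48.6% to 27.4% in K1. It fell from 51.1% to 34.6% (control) and from 47.6% to 21.1% (DKO) for J2 against input, from 49.6% to 35.9% and from 41.1% to 22.3% for K1 against input, and from 28.5% to 10.5% and from 25.1% to 13.2% for the interactions, the K1 interaction being 39.2% with other size factors. The median of all genes moved from -0.00097 to -0.13 in input and from -0.02 to -0.39 in K1 DKO against control, and from -0.07 to -0.44, from 0.10 to -0.26, from 0.00 to -0.23 and from -0.14 to -0.48 for the 4 comparisons with input.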

Other observations

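Markers of the other cell types moved in both directions in input, where 35.9% of all genes tested passed. Of 10 enterocyte markers 3 fell in DKO, led by Lct, the lactase gene (-5.31, SE 0.24, edgeR adjusted p = 5.32e-05) and Sis, sucrase-isomaltase (-1.36, SE 0.17, adjusted p = 0.00116). Among the other secretory cells, 3 of 6 enteroendocrine markers rose, led by Neurod1 (0.98, SE 0.27, adjusted p = 0.0275) and Chgb (0.74, SE 0.16, adjusted p = 0.00938). Of 6 tuft cell markers 5 were tested and 2 rose, Trpm5 (1.97, SE 0.20, adjusted p = 4.83e-04) and Avil (0.78, SE 0.17, adjusted p = 0.0117). Of 6 Paneth cell markers Mmp7 rose (0.64, SE 0.15, adjusted p = 0.0154) and Lyz1 fell (-1.21, SE 0.24, adjusted p = 0.00682). Of 9 leukocyte markers 7 were tested and 4 fell, led by Cd3e (-0.97, SE 0.19, adjusted p = 0.00682) and Itgax (-0.85, SE 0.26, adjusted p = 0.0371). Of 6 stroma markers 2 were tested, Col1a1 (0.61, SE 0.80, adjusted p = 0.589) and Pecam1 (0.10, SE 0.42, adjusted p = 0.875).

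In the K1 pulldown, where 27.1% of all genes tested passed, 5 of 6 enteroendocrine markers were higher in DKO, led by Neurod1 (3.10, SE 0.56, adjusted p = 0.00920) and Chgb (1.82, SE 0.32, adjusted p = 0.00866). Of 20 other goblet cell genes 19 were tested there, 4 rose, led by Guca2a (1.82, SE 0.40, adjusted p = 0.0173) and Scin, an actin-severing protein (1.18, SE 0.31, adjusted p = 0.0290), and 1 fell, Creb3l1 (-0.97, SE 0.30, adjusted p = 0.0498). In the J2 pulldown, where 12.2% of all genes tested passed, 0 of these 2 lists' genes did. There 5 enteroendocrine markers were tested, all 5 with a positive log2 fold change, and 19 other goblet cell genes, 12 positive and 7 negative.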
